A study of Mus musculus with 6 samples.

Results

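Sites called as bound by CTCF were examined around 10 genes that mark or drive the germ layers: Gata4, Gata6, Sox17 and Foxa2 for endoderm, Eomes, T and Mixl1 for mesoderm, and Pax6, Sox1 and Nes for neuroectoderm. A region of the deposited peak table was taken when it overlapped the gene body in the mouse mm9 annotation or lay within 50 kb of it. This gave 44 of the 57662 regions, and they lay around 9 genes, because the annotation used here names no Sox1 and that gene is described separately. The chromatin came from mouse embryonic stem cells in which the endogenous CTCF carried a degradation tag and was removed with auxin, and in which an introduced CTCF took its place. WT_CTCF cells carried the unmodified protein and MUT_CTCF cells a protein mutated at T668, the residue whose O-GlcNAc modification the study set out to remove. Per the paper, each genotype was 1 clone picked for a CTCF level near the endogenous one. Genotype and clone therefore cannot be told apart in the libraries used here. The paper also reports consistent results in additional clones of both genotypes, which the labels of these libraries do not name. CTCF was immunoprecipitated in 2 libraries of each genotype, and both genotypes were grown in serum and LIF and shared the tagged background. The 2 input libraries have no peak list and were not analysed here.

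CTCF recognises an oriented DNA motif through its zinc fingers and stops cohesin as it extrudes chromatin loops, so that pairs of bound sites facing each other tend to become loop anchors and domain borders. Pluripotent cells keep most lineage regulators silent or nearly so while their loci already lie inside CTCF-bordered domains. Gata4 and Gata6 are zinc finger factors, Sox17 an SRY-box factor and Foxa2 a forkhead pioneer factor of endoderm. Eomes and T (Brachyury) are T-box factors and Mixl1 is a homeobox factor of the primitive streak. Pax6 is a paired-box factor of neural and eye development, Sox1 an early neuroectoderm factor, and Nes encodes nestin, an intermediate filament protein of neural progenitors.

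Each library had its own peak list, with a score for every peak, and the whole peak table gave 1 mean for each region over the 4 libraries, called here the authors' mean, which is a read count scaled by Drosophila spike-in chromatin. The peak score is the caller's own value on the spike-in scaled track of 1 library. Its definition is not stated, and the lowest score was 13 in all 4 libraries. A score is not an amount of CTCF bound: it may grow with library depth and local background, read counts per library were not analysed here, and the depth is unknown. A lower score in MUT_CTCF is therefore reported as a lower score and not as less binding. The WT_CTCF libraries held 49987 and 54001 peaks and the MUT_CTCF libraries 33939 and 32712. Over the 30317 regions called in all 4 libraries the median score was 569 and 620 in WT_CTCF replicates 1 and 2, and 263 and 250 in MUT_CTCF replicates 1 and 2. The lower scores thus ran through the whole peak table, and their relation to genotype, clone and library depth cannot be told apart.

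The sequences under the sites are shown first, because the regions differ in how closely they hold the 13-base CTCF core motif. A match with at most 1 mismatch on either strand was found in 25 of the 44 regions (56.8%), against 60.6% of all regions of the peak table. Of these 25 regions, 5 held the core with no mismatch, and 16 of the other 20 carried the same substitution, Y5A (the consensus base, its position counted from 1 at the 5′ end of the core, and the base found). Over the whole table Y5A made up 55.8% of the cores with 1 mismatch. Capitals mark the 13-base core, read 5′ to 3′ on the strand of the motif, with 4 flanking bases on each side in lower case. The regions of each gene are numbered in genome order, and coordinates are mm9. All 5 regions with no mismatch were called in all 4 libraries, against 83.8% of such regions in the table. Their cores were the following.
Eomes region 2, chr9:118398966-118398986, minus strand: gtggCCACCAGATGGCGgaga
T region 8, chr17:8654628-8654648, minus strand: gtggCCAGCAGAGGGCGacag
T region 10, chr17:8661751-8661771, plus strand: gaagCCACCAGAGGGCGcctc
Nes region 3, chr3:87739818-87739838, plus strand: gtggCCACCAGAGGGCAccat
Nes region 7, chr3:87791061-87791081, minus strand: gtgaCCAGTAGAGGGCGctgc
The next 4 cores carried Y5A and lay in regions with a peak in each WT_CTCF library and in no MUT_CTCF library.
Gata4 region 1, chr14:63789067-63789087, minus strand: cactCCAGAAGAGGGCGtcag
T region 7, chr17:8641378-8641398, plus strand: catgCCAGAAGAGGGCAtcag
Mixl1 region 3, chr1:182649454-182649474, plus strand: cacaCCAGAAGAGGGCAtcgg
Nes region 1, chr3:87730526-87730546, minus strand: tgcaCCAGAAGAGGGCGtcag
Of the 16 regions with Y5A, 8 (50%) were called in all 4 libraries and 4 (25%) in WT_CTCF only. Among the table's regions with Y5A these shares were 45.1% and 25.3%. Of the 8, the strongest around T and the second strongest site downstream of Nes are shown.
T region 4, chr17:8613797-8613817, minus strand: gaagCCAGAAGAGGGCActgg
Nes region 10, chr3:87814724-87814744, plus strand: ggatCCAGAAGAGGGCGctgt
The last 2 cores are those of the site nearest to the start of Nes, with R13T, and of the single site near Sox17, with S4A.
Nes region 5, chr3:87774182-87774202, plus strand: ttagCCACCAGGGGGCTctct
Sox17 region 1, chr1:4506813-4506833, plus strand: gttgCCAATAGGTGGCGctag

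The genes differed in how many sites surrounded them. Nes had 12 regions, T 10, Gata4 8, Mixl1 5, Eomes 4 and Foxa2 2, and Gata6, Sox17 and Pax6 had 1 each. Among 22380 protein-coding genes the median was 5 regions within 50 kb, with quartiles of 2 and 9. At least 10 regions were found around 19.5% of protein-coding genes, and at most 1 around 19.0%. Of the 44 regions, 17 lay upstream of their gene, 21 downstream and 6 touched the gene body. By annotation, 25 were intergenic, 16 intronic and 3 exonic. Only 3 regions touched a promoter of their own gene, taken as 3000 bp upstream of an annotated transcript start. They were Foxa2 region 1, Nes region 5 and Pax6 region 1, the last at a transcript that starts inside the gene.

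Most sites around the lineage regulators were called in both genotypes. Of the 44 regions, 28 (63.6%) were called in all 4 libraries, against 52.6% of the peak table. Another 6 (13.6%) were called in both WT_CTCF libraries only, against 19.5% of the table. None was called in both MUT_CTCF libraries only, and such regions made up 0.033% of the table. The other 10 were called in an uneven set of libraries, and 6 of these had a peak in 1 WT_CTCF library alone. The regions with a peak in WT_CTCF replicates 1 and 2 numbered 40 and 41 (90.9% and 93.2%), against 86.3% and 93.4% of the table. Those in MUT_CTCF replicates 1 and 2 numbered 30 and 30 (68.2% each), against 58.3% and 56.2% of the table. The 6 regions called in WT_CTCF only were Gata4 regions 1, 5 and 7, T region 7, Mixl1 region 3 and Nes region 1.

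**Figure D1:**
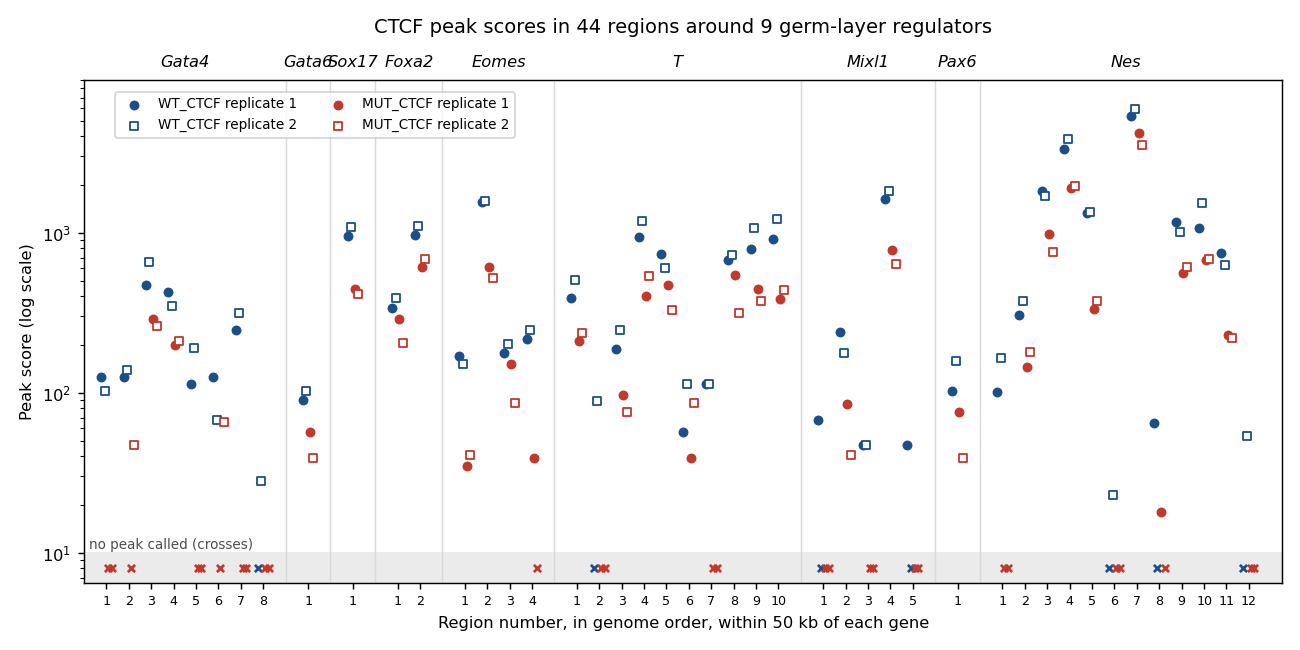
Peak score on a log axis in each of the 4 libraries (filled and open symbols for replicates 1 and 2, blue for WT_CTCF and red for MUT_CTCF) for the 44 regions, numbered in genome order within each gene; crosses mark libraries with no peak. Scores reach from 18 to 5904, the highest in Nes region 7, and red crosses outnumber blue ones.

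The pattern of calls followed the signal of the region. The authors' mean was 55 to 1711 (median 228) in the 28 regions called in all 4 libraries and 25 to 112.5 (median 49.2) in the 6 called in WT_CTCF only. In the whole table, 39.9% of the regions with a mean between 25 and 112.5 were called in WT_CTCF only. Among regions with a mean of 50 to 100, 29.9% of the table and 5 of 11 regions here were called in all 4 libraries. Between 100 and 200 the share was 91.2% in the table and 7 of 8 here, and all 16 regions at or above 200 were called in all 4 libraries. The mean is taken over the same 4 libraries, so this describes the calls and is no independent measure. The 6 regions called in WT_CTCF only scored 47 to 314 there, below the WT_CTCF medians of 569 and 620 over regions called in all 4 libraries. Over all regions with a peak, the medians were 287 and 261 in WT_CTCF replicates 1 and 2. Gata4 region 7, at 247 and 314, lay near these. A missing call does not show that CTCF was absent.

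**Figure D2:**
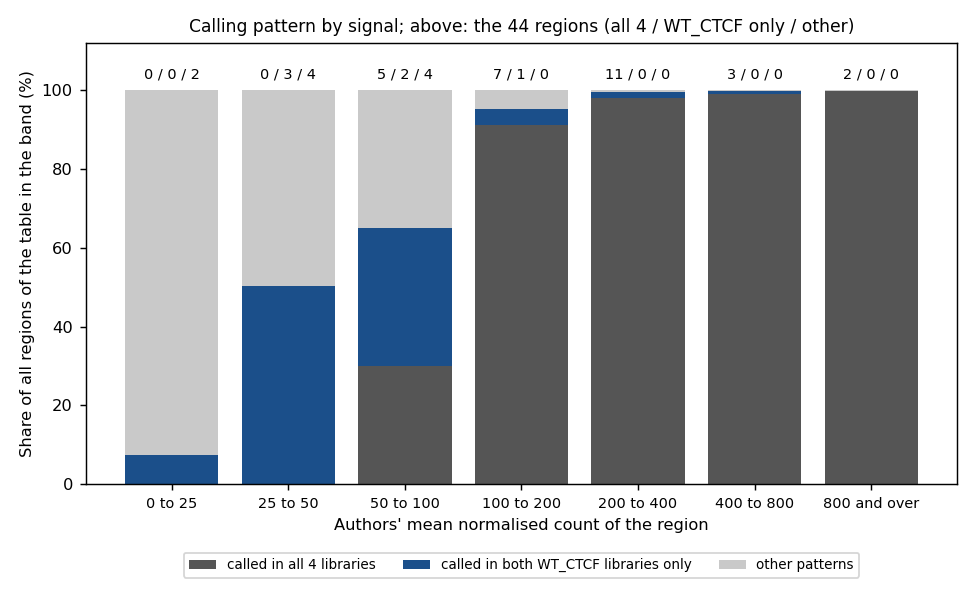
Share of all 57662 regions (%) called in all 4 libraries (dark), in both WT_CTCF libraries only (blue) or in another pattern (light), by band of the authors' mean normalised count; the numbers above each bar count the regions around the genes in the same order. The dark share passes from 29.9% to 91.2% between the bands 50 to 100 and 100 to 200, and the 44 regions follow the same steps.

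Scores were compared between genotypes over the 30317 regions called in all 4 libraries, on the log2 scale, with limma and Benjamini-Hochberg adjustment over all of them. Of the 28 regions around the genes, 25 (89.3%) scored lower in MUT_CTCF at an adjusted p below 0.05, against 90.8% of all tested regions, and none scored higher, against 0.0396%. The median difference was -1.03 on the log2 scale over the 28 regions and -1.18 over all tested regions. In 27 of the 28 regions both MUT_CTCF scores lay below both WT_CTCF scores, which held for 96.2% of all tested regions. These shares lay close to those of the whole peak table. The 3 regions that did not pass were Foxa2 region 1, Eomes region 3 and T region 6. The count depended on single libraries: it was 13 of 28 without WT_CTCF replicate 1, 16 of 29 without MUT_CTCF replicate 2 and 0 of 28 without WT_CTCF replicate 2. In the last of these, the lowest adjusted p over all regions was 0.0529, no region of the table passed, and 16 of the 28 had an unadjusted p below 0.05.

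Because the scores were lower throughout, each library was also centred on its median, which asks whether a region differed from the typical region. The library medians differed by -1.21 on the log2 scale (MUT_CTCF minus WT_CTCF), and centring took out this shift. After centring, 3 of the 28 regions scored higher in MUT_CTCF, against 10.9% of all tested regions, and 1 scored lower, against 8.49%. The 3 were Foxa2 region 2, Nes region 4 and Nes region 7, and the 1 was Nes region 5. The median centred difference was 0.19 over the 28 regions and 0.03 over all tested regions. In the table the centred difference moved with signal, from a median of -0.10 at a mean of 50 to 100 to 0.20 at 800 and over, and 43.2% of the latter passed as higher. The part of this relation in the higher calls of Nes regions 4 and 7, with means of 988 and 1711, was not tested. Without WT_CTCF replicate 1 the calls were 1 higher and 0 lower, without WT_CTCF replicate 2 they were 1 and 1, and without MUT_CTCF replicate 2 they were 4 and 2.

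**Figure D3:**
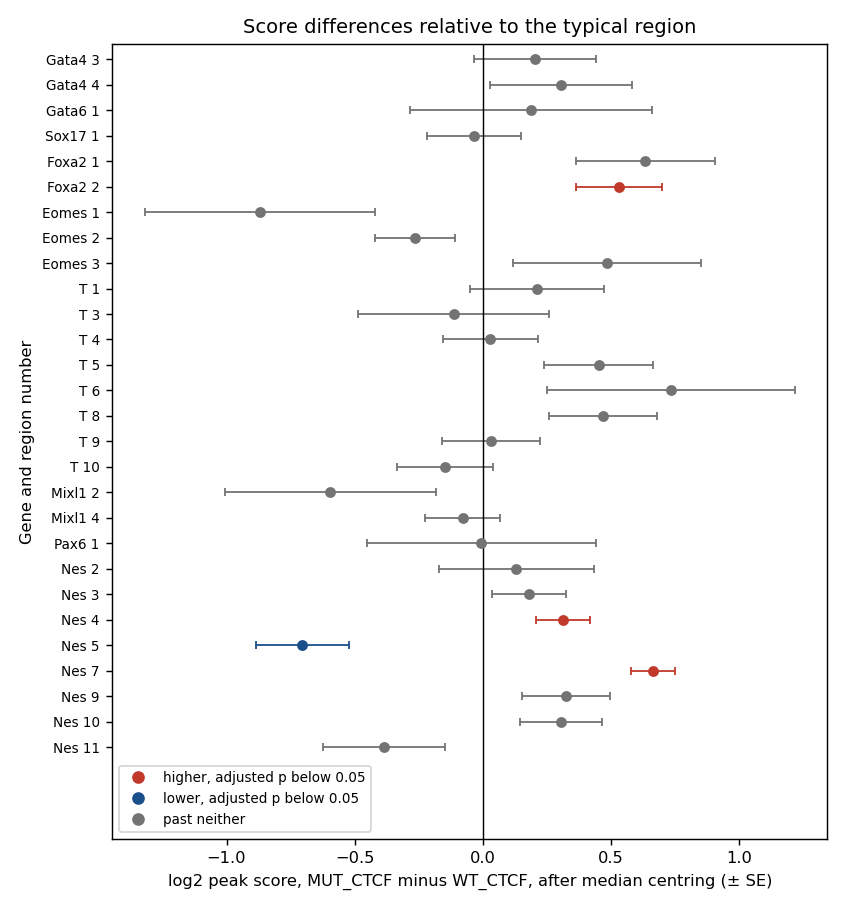
Difference in log2 peak score, MUT_CTCF minus WT_CTCF, after median centring, with its standard error, for the 28 regions called in all 4 libraries; red and blue mark an adjusted p below 0.05. Nes region 7 stands at 0.67 and Nes region 5 at -0.70.

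Among the endoderm genes, Gata4 had the most sites and the most that were called in WT_CTCF only. Gata4 spans chr14:63817759-63890529 on the minus strand, and 4 of its 8 regions lay in its introns. The strongest was region 3 (chr14:63814548-63815117), 2642 bp past the 3′ end of the gene and in the promoter of Neil2, which encodes a DNA glycosylase of base excision repair. It scored 471 and 654 in WT_CTCF and 290 and 263 in MUT_CTCF. The groups did not overlap, and the difference was -1.01 ± 0.24 (log2, SE, adjusted p = 0.00225). Its adjusted p was 0.0658 without WT_CTCF replicate 2, 0.0605 without MUT_CTCF replicate 1 and 0.0777 without MUT_CTCF replicate 2. After centring it was 0.20 ± 0.24 (adjusted p = 0.593), so it did not stand apart from the typical region.

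Of the 3 Gata4 regions called in WT_CTCF only, regions 1 and 5 had low scores there. Region 1 (chr14:63788920-63789363), in an intron of the neighbouring gene Fdft1, which encodes squalene synthase, scored 125 and 102. Region 5 (chr14:63836614-63837042), in a Gata4 intron, scored 113 and 190. Region 7 (chr14:63874838-63875222), also in an intron and 15307 bp from the 5′ end, scored 247 and 314 and was the strongest of the 6 WT_CTCF-only regions, with an authors' mean of 112.5. In the table, 3.94% of the regions with a mean of 100 to 200 were called in WT_CTCF only. Region 7 held no core within 2 mismatches and had a GC content of 61.0%, against a median of 45.6% in the table. The region nearest to the 5′ end, region 8 (chr14:63895428-63895593), lay 4899 bp upstream and had a peak in WT_CTCF replicate 2 alone, with a score of 28. Within 50 kb of the Gata4 5′ end no region was called in all 4 libraries, and region 6, at 46117 bp, lacked a peak in MUT_CTCF replicate 1 alone.

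Gata6, Sox17 and Foxa2 had few sites. The Gata6 gene spans chr18:11052508-11085633, and its only region (chr18:11108288-11108550) lay 22655 bp past the 3′ end. It was weak, with scores of 90 and 102 in WT_CTCF and 57 and 39 in MUT_CTCF. The groups were apart by -1.02 ± 0.43 (log2, SE, adjusted p = 0.0399). The adjusted p rose to 0.117 without WT_CTCF replicate 1, 0.153 without WT_CTCF replicate 2 and 0.0989 without MUT_CTCF replicate 2.

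The single Sox17 region (chr1:4506441-4507206) lay 19947 bp upstream of the gene, which spans chr1:4481009-4486494 on the minus strand. It scored 955 and 1085 in WT_CTCF and 444 and 415 in MUT_CTCF. The difference of -1.25 ± 0.17 (adjusted p = 0.000111) was that of the typical region, with a centred value of -0.03 ± 0.18 (adjusted p = 0.925). Without WT_CTCF replicate 2, where no region of the table passed, the uncentred difference was -1.15.

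Foxa2 (chr2:147868613-147872705, minus strand) had 2 regions, both upstream. Region 1 (chr2:147874127-147874604), in its promoter 1422 bp from the 5′ end, scored 337 and 393 in WT_CTCF and 289 and 206 in MUT_CTCF. The groups did not overlap, but the difference of -0.58 ± 0.26 had an adjusted p of 0.0576, and it was 0.0487 without MUT_CTCF replicate 1. Region 2 (chr2:147907896-147908509), 35191 bp upstream, scored 973 and 1104 in WT_CTCF and 610 and 688 in MUT_CTCF. It kept more of its score than the typical region, at -0.68 ± 0.16 (adjusted p = 0.00261) before and 0.53 ± 0.17 (adjusted p = 0.0170) after centring. The centred adjusted p was 0.142, 0.0973 and 0.123 without WT_CTCF replicate 1, WT_CTCF replicate 2 and MUT_CTCF replicate 2, and 0.0816 after quantile normalisation. The uncentred p was 0.0566, 0.0803 and 0.0512 without WT_CTCF replicate 1, WT_CTCF replicate 2 and MUT_CTCF replicate 1. The centred value of region 1 was 0.64 ± 0.27 (adjusted p = 0.0885), or 0.0231 without MUT_CTCF replicate 2. Neither region held a core with 1 mismatch or fewer.

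The 4 Eomes regions all lay downstream of the gene (chr9:118387330-118395250), within 12 kb of its 3′ end. The strongest, region 2 (chr9:118398634-118399308), scored 1549 and 1590 in WT_CTCF and 609 and 523 in MUT_CTCF. The MUT_CTCF scores were lower, with a difference of -1.48 ± 0.15 (log2, SE, adjusted p = 2.7e-05), with a centred value of -0.26 ± 0.16 (adjusted p = 0.247). The region nearest to the 5′ end, region 1 (chr9:118397322-118397678), scored 170 and 151 in WT_CTCF and 35 and 41 in MUT_CTCF. This was the lowest ratio among the 28 regions, 23.6% of the WT_CTCF score, but with an SE of 0.39 around -2.08 (adjusted p = 0.000629) its centred value of -0.87 did not pass (adjusted p = 0.174). Without WT_CTCF replicate 2, where no region of the table passed, the difference was -1.46 in region 2 and -2.17 in region 1. Region 4 was called in 3 libraries, with 216 and 245 in WT_CTCF and 39 in MUT_CTCF replicate 1.

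T (chr17:8627288-8635361) had 10 regions, 8 of them called in all 4 libraries, and none touched the gene. The strongest by the authors' mean was region 4 (chr17:8613531-8614170), 13118 bp upstream in an intron of the neighbouring annotation T2. It scored 937 and 1180 in WT_CTCF and 400 and 537 in MUT_CTCF, a difference of -1.18 ± 0.20 (adjusted p = 0.000335) and a centred one of 0.03 ± 0.18 (adjusted p = 0.935). The adjusted p was 0.0670 without WT_CTCF replicate 1 and 0.0991 without WT_CTCF replicate 2. The nearest to the 5′ end was region 6 (chr17:8636956-8637217), 9668 bp downstream, and it was the single region of the 28 whose groups overlapped. It scored 57 and 114 in WT_CTCF and 39 and 86 in MUT_CTCF (-0.48 ± 0.52, adjusted p = 0.389). Region 7 (chr17:8641162-8641552) was called in WT_CTCF only, at 113 and 114, and region 2 (chr17:8582490-8583001) in WT_CTCF replicate 2 only, at 89. Over the 8 fitted regions the difference ranged from -1.36 to -0.48, 7 passed as lower, and none passed after centring.

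Mixl1 (chr1:182623174-182627165, minus strand) had 5 regions, none closer than 22 kb to its 5′ end. The strongest, region 4 (chr1:182650295-182651055), lay 23130 bp upstream and scored 1629 and 1833 in WT_CTCF and 779 and 641 in MUT_CTCF. The difference was -1.29 ± 0.15 (adjusted p = 5.1e-05), and 0.0596 without WT_CTCF replicate 2, with a centred value of -0.08 ± 0.15 (adjusted p = 0.762). Region 3 (chr1:182649399-182649627), the nearest to the 5′ end at 22234 bp, lay next to it and was called in WT_CTCF only, at 47 in each library. Regions 1 (chr1:182581143-182581348) and 5 (chr1:182674160-182674350) had a peak in WT_CTCF replicate 1 alone, at 68 and 47. Regions 3 and 4 thus formed a pair of a weak site and the strongest site of the locus less than 1 kb apart, of which the strong one was called in every library.

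Pax6 (chr2:105509053-105543317) had a single and weak region (chr2:105527622-105528093), in an intron 18569 bp from the 5′ end, at the promoter of an internal transcript. It scored 102 and 157 in WT_CTCF and 76 and 39 in MUT_CTCF, with no overlap of the groups. The difference was -1.22 ± 0.46 (adjusted p = 0.0256), which lay at the typical shift (centred -0.01 ± 0.45, adjusted p = 0.996). Leaving out 1 library at a time gave adjusted p of 0.152 and 0.298 without WT_CTCF replicates 1 and 2, and 0.0504 and 0.202 without MUT_CTCF replicates 1 and 2. With regions lacking a peak set at the lowest score it was 0.106.

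Nes had the most sites and the strongest site. Its differences spread about as widely as those of the 3 fitted Eomes regions (-2.08 to -0.73). The Nes gene spans chr3:87775000-87784373, and 8 of its 12 regions were called in all 4 libraries and passed as lower. Region 7 (chr3:87790632-87791996), 6259 bp past the 3′ end and touching an exon of Bcan, which encodes the brain proteoglycan brevican, scored 5366 and 5904 in WT_CTCF and 4183 and 3550 in MUT_CTCF. Among the 30317 regions it ranked 185 and 182 from the top in WT_CTCF and 108 and 137 in MUT_CTCF. The difference was -0.55 ± 0.11 (log2, SE, adjusted p = 0.000736) on the scores as deposited, at 68.5% of the WT_CTCF score. Relative to the typical region it was higher, by 0.67 ± 0.08 (adjusted p = 1.13e-08), and by 0.36 after quantile normalisation (adjusted p = 0.00422). The centred call held with each library left out in turn, whereas the uncentred p was 0.0827, 0.119 and 0.0532 without WT_CTCF replicate 1, WT_CTCF replicate 2 and MUT_CTCF replicate 2.

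Region 5 (chr3:87773928-87774833), in the Nes promoter 167 bp upstream of the 5′ end, differed in the other direction from the typical region. It scored 1329 and 1349 in WT_CTCF and 335 and 376 in MUT_CTCF, a clear gap between groups whose replicates lay close together. The difference was -1.92 ± 0.17 (adjusted p = 1.5e-05), or 26.5% of the WT_CTCF score. After centring it was -0.70 ± 0.18 (adjusted p = 0.00315) and after quantile normalisation -0.79 (adjusted p = 0.00366). In WT_CTCF, 12.4% and 14.2% of the regions scored above it, and in MUT_CTCF 39.7% and 32.8% did. The centred difference was -0.65 without WT_CTCF replicate 1 and no longer passed. The uncentred difference was -1.905 without WT_CTCF replicate 2, where no region of the table passed.

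The score of region 5 was also set against that of region 7 within each library. A factor that multiplies all scores of a library alike drops out of this ratio. A shift that varies with signal does not, and the authors' mean was 391 in region 5 and 1711 in region 7. The pair was chosen for its opposite centred calls, so the ratio describes those calls again. An exact permutation test of the ratio gave p = 0.333. This is the smallest value possible with 2 against 2 libraries, so the test could not decide. Region 5 reached 24.8% and 22.8% of the score of region 7 in WT_CTCF and 8.01% and 10.6% in MUT_CTCF. Over 2 libraries each, WT_CTCF had a mean of 23.8% ± 1.36 (SD) and MUT_CTCF one of 9.30% ± 1.83 (SD).

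The cores of Nes regions 5 and 7 lay on the plus and the minus strand, and so faced each other across the gene. Region 4 (chr3:87764750-87765464), 9536 bp upstream, scored 3349 and 3850 in WT_CTCF and 1894 and 1962 in MUT_CTCF. The difference was -0.90 ± 0.11 (adjusted p = 6.5e-05), and after centring 0.31 ± 0.10 (adjusted p = 0.0243). Without WT_CTCF replicate 1, WT_CTCF replicate 2 and MUT_CTCF replicate 2 the centred difference was 0.28, 0.35 and 0.25, and it passed in none of these. After quantile normalisation it was 0.16 (adjusted p = 0.270). The uncentred difference was -0.80 without WT_CTCF replicate 2, where no region of the table passed. Region 1 (chr3:87730197-87730624), in an exon and the promoter of Rrnad1, was called in WT_CTCF only, at 101 and 164. Region 6 (chr3:87778395-87778641) inside Nes and region 12 (chr3:87832448-87832658) near Hapln2, which encodes a link protein of the brain matrix, had a peak in WT_CTCF replicate 2 alone, at 23 and 54. Over the 8 fitted regions the difference ranged from -1.92 to -0.55 and the centred one from -0.70 to 0.67.

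**Figure D4:**
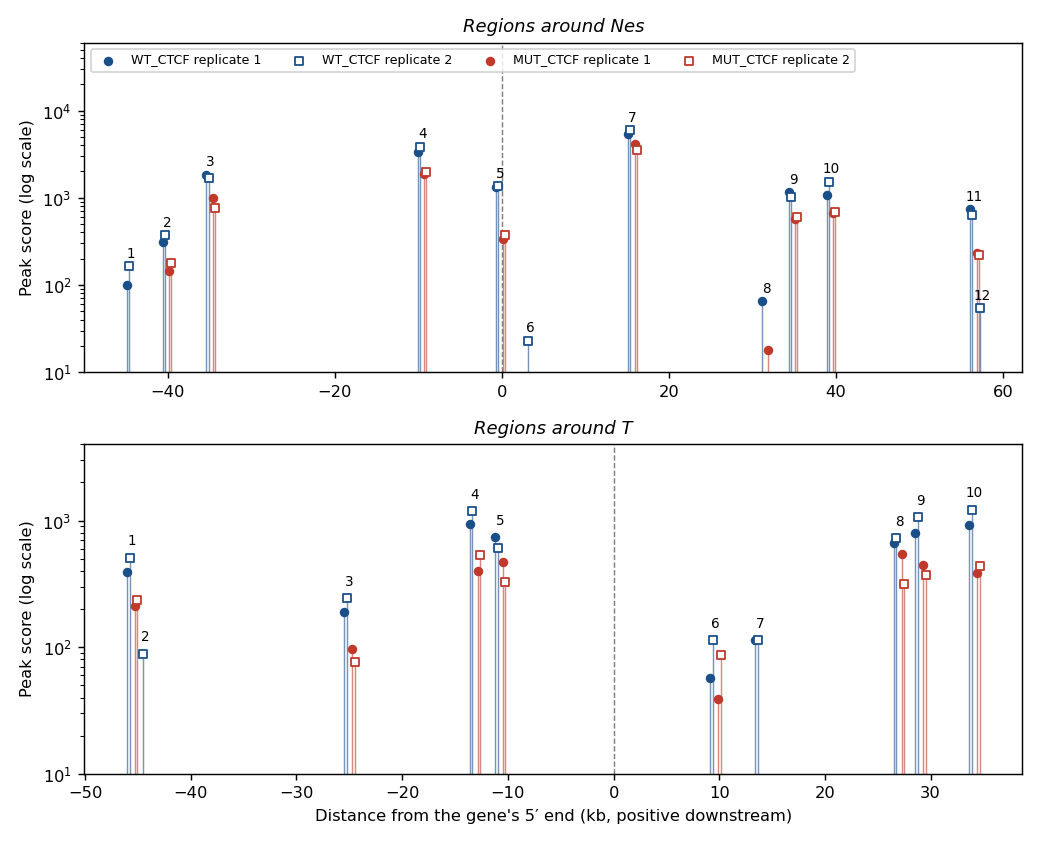
Peak scores on a log axis in each library (symbols as above, offset sideways so that they can be told apart) against the distance of the region from the 5′ end of Nes (upper) and T (lower), in kb. Around Nes the scores of region 5 at the 5′ end drop from 1329 and 1349 in WT_CTCF to 335 and 376 in MUT_CTCF, while region 7 stays the strongest in all 4 libraries.

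Sox1 was placed by its RefSeq promoter sequence (GRCm38.p6), whose 300 bases matched the mm9 genome once, at chr8:12395269-12395568 on the plus strand, and this placement was added after the files were seen. Within 50 kb of that start lay 3 regions, which are not among the 44. The nearest (chr8:12391421-12392057), 3462 bp upstream, scored 309 and 347 in WT_CTCF and 120 and 86 in MUT_CTCF (-1.69 ± 0.31, adjusted p = 0.000534). Its centred value was -0.48 ± 0.33 (adjusted p = 0.336). The region 24902 bp downstream (chr8:12420421-12420967) scored 455 and 409 in WT_CTCF and 317 and 225 in MUT_CTCF (-0.69 ± 0.25, adjusted p = 0.0223, centred 0.52 ± 0.26, adjusted p = 0.149). The third (chr8:12419513-12419901) had scores of 90 and 164 in WT_CTCF and 15 in MUT_CTCF replicate 1, and no peak in MUT_CTCF replicate 2.

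Peaks were narrower as well as lower in score. Of the 28 regions, 16 were narrower in MUT_CTCF at an adjusted p below 0.05, against 52.8% of all tested regions, and none was wider, against 0.0231%. The median difference in log2 width was -0.40 over the 28 and -0.46 over all. Nes, with 8 of the 28 regions, had 7 of the 16. These counts rested on the shift common to a library and on single libraries: after centring the widths 0 of the 28 were narrower, and without WT_CTCF replicate 1 or 2 only 2 were in each case, out of 6303 and 616 over all regions. Without MUT_CTCF replicate 1 the count was 10 of 30, and without MUT_CTCF replicate 2 it was 8 of 29. The width comes from the same peaks and is not an independent measure. The summits moved little in most regions. The median distance between the mean summits of the genotypes was 10 bp over the 28 regions, and 8.5 bp over all tested regions. Replicates of 1 genotype lay a median of 5 bp apart in the 28 regions, and 7 bp (WT_CTCF) and 8 bp (MUT_CTCF) over all tested regions. In 14 of the 28 regions the distance between genotypes exceeded the gap between replicates in both genotypes. The share over all tested regions was not counted, so no conclusion is drawn from this count. The summit of Eomes region 2 differed by 42 bp between genotypes, with replicates 2 bp apart in each, and that of Sox17 region 1 by 26.5 bp, with replicates 2 and 7 bp apart. Over all tested regions 90% of the distances were at most 25 bp, and no test was run on the summits. In the 17 regions with both a core and peaks in every library, the summit lay a median of 10 to 14 bp from the core in each library.

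The core motif was found in 17 of the 28 regions called in all 4 libraries, 4 of the 6 called in WT_CTCF only and 4 of the other 10. A core was thus absent from 11 of the 28 and 2 of the 6 regions. In the table it was absent from 8999 of the 30317 and 5149 of the 11266 regions of these classes. The table's regions called in WT_CTCF only lacked a core more often than those called in all 4 libraries. The 6 regions here did not, but they are few and no test was run. Of the 25 cores, 13 lay on the strand of their gene and 12 on the opposite one. The letters AGAAGAGGG, which are core positions 3 to 11 with Y5A, were searched on both strands and were chosen after the sequences above had been seen. They were present in 14 of the 44 regions (31.8%), against 28.7% of all regions of the table. They were in 5 of the 6 regions called in WT_CTCF only and in 6 of the 28 called in all 4 libraries, and in the table in 38.4% and 23.1% of these classes. The letters AGCAGAGGG or ACCAGAGGG, which are forms of the same positions that fit the core, were in 4 regions here (9.09%) and in 6.47% of the table. These forms differ from AGAAGAGGG at 1 or 2 positions, and other fitting forms, such as that of Nes region 7, were not counted. All 4 regions were called in all 4 libraries, and so were 72.6% of the table's regions with these letters, against 42.2% of those with AGAAGAGGG.

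The regions holding these letters also differed in signal. The median authors' mean was 68 in the table's regions with AGAAGAGGG and 172.5 in those with the other letters. Among regions with a mean of 25 to 50, 57.6% of the former and 47.4% of the latter were called in WT_CTCF only, and at 50 to 100 the shares were 37.1% and 33.3%. At 100 to 200 they were 2.57% and 2.00%. Whether these sites lie in repeats was not tested.

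The same counts were made around 41 other regulators, of which 38 had a region and which shared none with the 10 genes. Their 212 regions were called in all 4 libraries in 53.3% and in WT_CTCF only in 21.2%, against 52.6% and 19.5% of the table. None was called in MUT_CTCF only, against 0.033%. Of 113 fitted regions, 100 (88.5%) scored lower, against 90.8% of all tested regions, and none higher, against 0.0396%. The median was -1.21. After centring 11 were lower and 11 higher, against 8.49% and 10.9% of all tested regions. These shares lay close to those of the whole peak table. By list, the median was -0.99 for 27 regions of endoderm genes (such as Foxa1, Hnf4a and Cer1) and -1.10 for 35 of mesoderm genes (such as Tbx6 and Mesp1). It was -1.24 for 27 of ectoderm genes (such as Zic1 and Pax3) and -1.30 for 24 of Nodal signalling genes. Among the genes described here, the endoderm genes had a median of -0.96 over 6 regions. The mesoderm genes had -1.18 over 13 regions, 8 of them around T. The neuroectoderm genes, here Nes and Pax6 without Sox1, had -1.03 over 9 regions, 8 of them around Nes. These medians lie within the quartiles of all tested regions, -1.52 and -0.88.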

How the data were processed

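CTCF ChIP-seq was analysed from mouse embryonic stem cells, with 2 WT_CTCF and 2 MUT_CTCF libraries described as biological replicates. Per the labels and the study's methods, the authors trimmed reads (Trim Galore 0.4.4), aligned them to mm9 (Bowtie2 2.3.4.1), removed multiply aligned and duplicate reads, scaled coverage by Drosophila spike-in reads and called peaks per library with MACS2 2.1.1.20160309. The deposited peak score is the caller's value; its cutoff, definition and use of the input are not given in the sources used here. The authors joined all peaks, counted reads in them and ran DESeq2 1.38.0. Of that table the regions and the mean were used, and this deposited signal is named the authors' mean. Its 5 columns of fold change, error, statistic and p-values were not used.

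A library called a region when a peak overlapped it by at least 1 bp. The highest score was taken, on the log2 scale, and compared with limma 3.58.1 in R 4.3.3 (trend, two-sided) over regions called in all 4 libraries, and likewise for width, with Benjamini-Hochberg adjustment and a threshold of 0.05. The method was tested on simulated data, where 84 of 100 regions changed by 2 on the log2 scale, and 36 of 100 changed by 1, were recovered, and 10 unchanged regions were called among 130 calls. Only these regions of 30317 were changed, up or down, with no shift common to a library. The recovery rates therefore do not carry over to the uncentred comparison, where most regions passed. Genes came from GENCODE vM1 on NCBIM37, the same build as mm9, and all 57662 regions lay inside its chromosomes. The members and lists were chosen with earlier results of these data known. For each gene, values are given in full for the region with the highest mean, the one nearest to the 5′ end, those called in 1 group only or in 1 library, and those past the threshold after centring.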

Additional observations from a re-analysis of the deposited data

How the results depend on the processing

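Of 142 alternatives to counts and medians, 84 kept the value within 1.5 times or the spread between libraries, 56 moved further and 2 reversed. Of 259 alternatives for single regions, 187 kept direction and call and 14 changed sign with no call before or after. Another 44 lost the call, 2 gained one and 12 reversed. Some alternatives reuse the same scores and could not move a difference, so the tally is no measure of robustness. For example, no region around the genes held several peaks of 1 library, so the sum of scores equalled the highest score. Read depth is unknown, which limits every score. Over the whole table, 27522 regions scored lower and 12 higher. Centring on the library medians gave 2575 lower and 3312 higher, quantile normalisation 2436 and 2186, and a minimum score at the pooled median 13660 and 4, the last over fewer regions. Higher calls numbered 23 with uncalled libraries set at the lowest score and 19 without the variance trend. Leaving out 1 library at a time gave 0 to 23190 lower and 0 to 6 higher calls, and after centring 828 to 3332 lower and 1412 to 3395 higher. For width, 16001 were lower and 7 higher, centring gave 501 and 55, and leaving out 1 library gave 616 to 13788 and 0 to 7.

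Around the genes, 25 lower calls became 1 after centring and 1 after quantile normalisation, 16 with that minimum score, 12 within 20 kb, 41 within 100 kb, 2 for regions touching the gene and 0 to 22 when 1 library was left out. The 0 higher calls became 3 after centring and 1 after quantile normalisation. After centring, leaving out 1 library gave 0 to 2 lower and 1 to 4 higher calls. The median difference of -1.03 turned to 0.19 after centring and to 0.17 after quantile normalisation, which remove the shift common to a library by construction. It was -1.18 with uncalled libraries at the lowest score, -0.91 within 20 kb and -1.20 to -0.95 when 1 library was left out. Regions called in both groups numbered 15 within 20 kb, 45 within 100 kb, 2 touching the gene and 16 with the minimum score. Regions called in WT_CTCF only numbered 3, 14 and 2 in these windows, 12 when 1 library per group sufficed and 7 to 10 when 1 library was left out. The core motif was in 5 regions with no mismatch.

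Single regions turned to positive differences under centring and quantile normalisation: Gata4 region 3 (0.20 and 0.21), Gata6 region 1 (0.19 and 0.28), Foxa2 region 2 (0.53 and 0.42), Nes region 4 (0.31 and 0.16) and Nes region 7 (0.67 and 0.36). T region 4 did so under centring (0.030) and Pax6 region 1 under quantile normalisation (0.10). Foxa2 region 1 (0.64 and 0.68) and T region 6 (0.73 and 0.82), which passed in neither case, also turned positive, the latter also without WT_CTCF replicate 2 (0.02) or MUT_CTCF replicate 1 (0.09).

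Where 1 library was left out, the lone library of its group was assumed to vary like the other group. Replicate numbers did not pair the samples: the deviations of same-numbered libraries correlated at r = -0.0033. With the replicate block 27731 regions scored lower and 11 higher, and 2631 and 3411 after centring.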
